A study of Mus musculus with 4 samples.

Results

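The genes described here are 30 macrophage and leukocyte genes, a named list that holds 15 markers of tissue-resident macrophages and 15 genes that macrophages share with other white blood cells. They were picked by symbol, and all 30 were found among the 43346 gene identifiers of the count files. Transcripts of mouse hearts were sequenced at postnatal day 0, the day of birth, in 2 libraries of MRTFA/B double knockout mice on a mixed strain background and in 2 libraries of wild type mice of the ICR strain. MRTFA and MRTFB are coactivators of serum response factor, and the sources used here do not give the alleles or any Cre driver behind the knockout. Genotype and strain background cannot be told apart, because every double knockout library is mixed and every wild type library is ICR. The labels do not say that the libraries of a group came from separate animals, so the p-values measure a spread between libraries that may be technical.

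Macrophages settle in the heart before birth, from yolk sac and fetal liver progenitors, and lie between the muscle cells, where they clear debris and help shape the coronary and lymphatic vessels. They depend on the growth factor receptor encoded by Csf1r and on the transcription factor PU.1, the product of Spi1. In mice, long-lived resident cells are marked by Lyve1, Timd4 and Folr2, whereas cells that were recently monocytes are marked by the chemokine receptor Ccr2. The fractalkine receptor Cx3cr1 is found on monocytes and on many tissue macrophages, and the hemoglobin scavenger receptor Cd163 on a mature subset. In a whole heart, fewer cells of a type and less RNA per cell cannot be told apart.

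The libraries held 27328195 and 16175259 counts in double knockout hearts and 29460641 and 25205257 counts in wild type hearts, and 16009 genes passed the filter on low counts and were tested. Levels are given as CPM, counts per 1000000 reads after adjustment of the library size by TMM, a scaling that assumes that most genes do not differ between libraries. Of the targeted genes, Mrtfa was at 3.35 and 2.26 CPM in double knockout hearts, against 9.06 and 11.1 CPM in wild type hearts, and Mrtfb at 46.0 and 49.6 CPM, against 46.9 and 56.8 CPM. The log2 fold change of Mrtfa was -1.82 (SE 0.26; adjusted p = 0.120 by edgeR and 1.25e-05 by DESeq2). That of Mrtfb was -0.12 (SE 0.13; edgeR adjusted p = 0.690), so the counts of Mrtfb show no loss in the libraries labelled double knockout. Whether the counted exons include the part that was removed is not known from the sources used here. The double knockout pair stood further apart than the wild type pair, with a median absolute log2 ratio between its libraries of 0.22, against 0.14 within the wild type pair, over all genes tested. For many of the genes described here the double knockout libraries lay on opposite sides of wild type, so the value in each library is given throughout.

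No macrophage or leukocyte gene passed the test over all genes, yet the list was far from uniform. In double knockout library 1 nearly every member lay above the wild type mean, but some, such as Ptprc, Lyve1 and Mrc1, lay within the wild type range. In library 2 the list split: Cd163, Fcgr3, Cd14, Ctss and the C1q genes lay above wild type, and Cx3cr1, Ccr2, Cybb, Ptprc, Adgre1 and Mpeg1 lay below it. Of the 29 members tested, 19 had a positive and 10 a negative log2 fold change, double knockout over wild type, where 51.3% of all genes were positive. The members had a median of 0.21, against 0.01 over all genes tested. At an adjusted p under 0.05 in the quasi-likelihood test of edgeR with Benjamini-Hochberg adjustment, 0 members passed, where 0.0750% of all genes did, 0.0125% higher and 0.0625% lower. At an unadjusted p under 0.05 there were 7 members, all higher, where 8.70% of all genes were higher and 8.63% lower. In DESeq2 2 members passed, Cd163 and Fcgr3, both higher, where 3.32% of all genes passed, 1.76% higher and 1.57% lower, and 3 members had no adjusted p. In 11 members the lowest double knockout value exceeded the highest wild type value, as in 25.8% of all genes, and in 1 member, Laptm5, the reverse held, as in 25.2%.

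**Figure D1:**
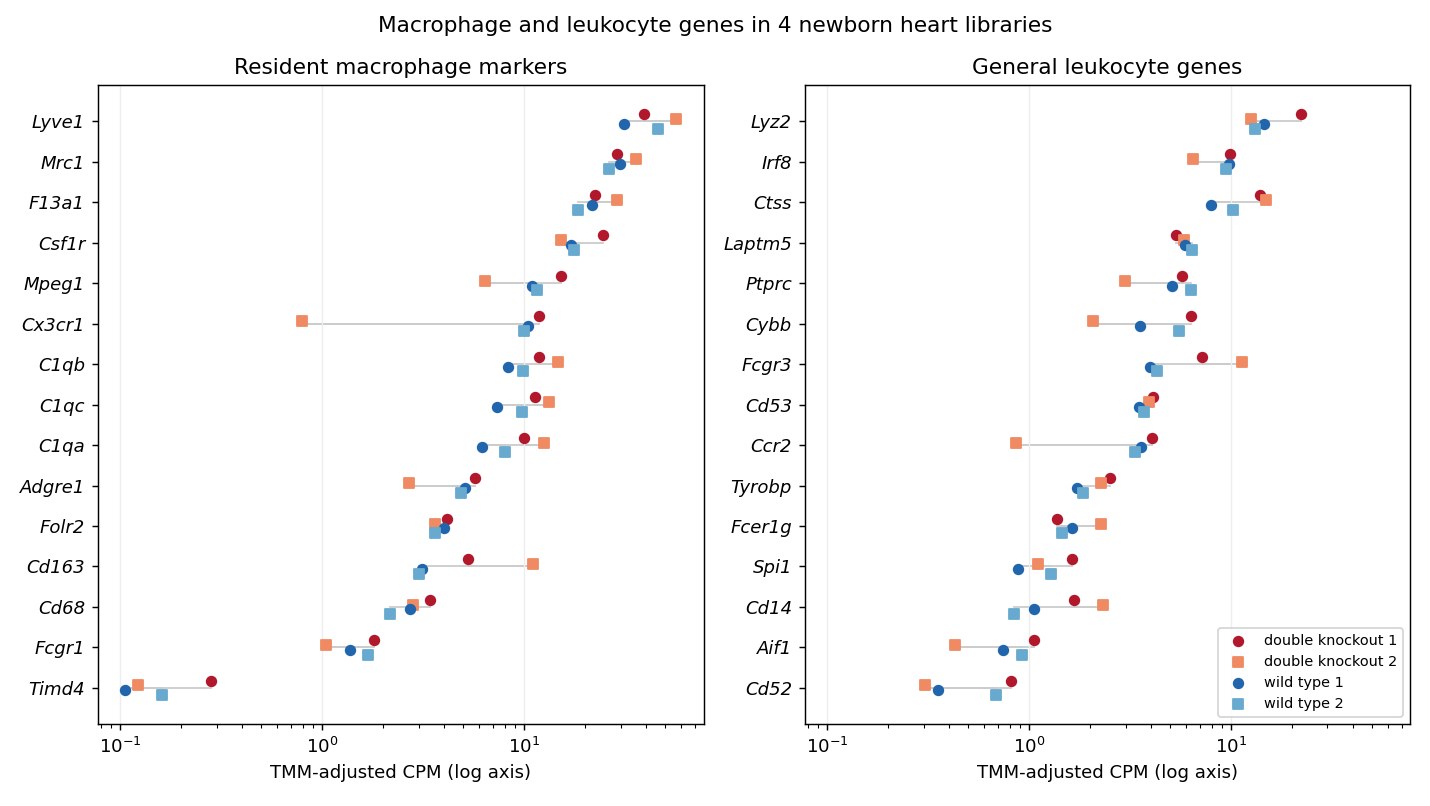
Level of each of the 30 genes in the 4 libraries, as TMM-adjusted CPM on a log axis, with resident macrophage markers on the left and general leukocyte genes on the right. Red and orange points are the double knockout libraries, blue points the wild type libraries, and a grey line spans the 4 values. The widest span is that of Cx3cr1, at 0.795 CPM in double knockout library 2 and between 9.97 and 11.9 CPM in the other libraries.

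Setting each double knockout library against the wild type mean shows the same split. In library 1, 27 of the 29 members lay above the wild type mean, with a median log2 ratio of 0.39, where 50.4% of all genes lay above it. In library 2, 15 of 29 did, with a median of 0.02, where 49.6% of all genes did. Between the double knockout libraries, 7 members were more than 2-fold lower in library 2 than in library 1, where 5.0% of all genes were, and 1 member, Cd163, was more than 2-fold higher, where 3.60% were. No member differed by more than 2-fold within the wild type pair, where 2.65% of all genes did. For 18 of the 30 members the exact 95% interval of the library 2 to library 1 ratio excluded 1 in the double knockout pair, and for 7 members in the wild type pair. These intervals cover counting error only. The share over all genes was not computed, so these counts do not set the members apart from other genes.

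**Figure D2:**
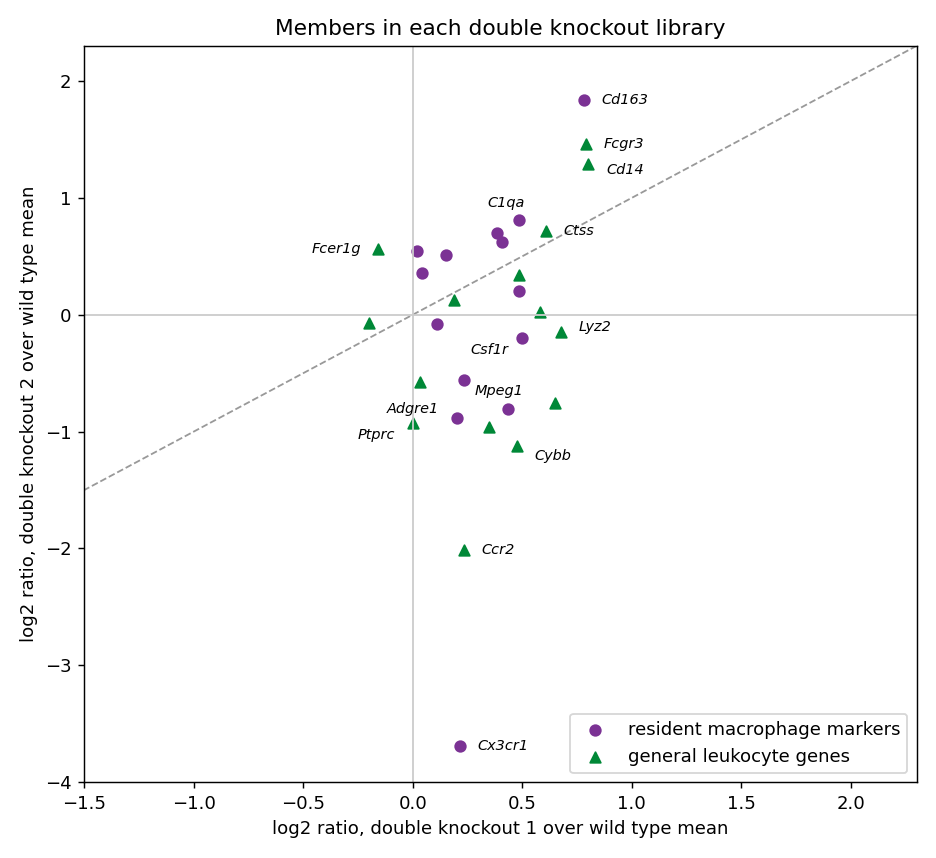
Log2 ratio to the wild type mean in double knockout library 1 (horizontal) and in double knockout library 2 (vertical) for the 29 tested members, with circles for resident macrophage markers and triangles for general leukocyte genes. The dashed line marks equal ratios. Nearly all points lie right of 0 on the horizontal axis, while on the vertical axis they run from Cx3cr1, far below 0, to Cd163 near the top.

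Fcgr3 was the only member that passed in edgeR when either double knockout library was set alone against wild type. Fcgr3 (ENSMUSG00000059498, chromosome 1, 171051174 to 171064935, mm10) encodes an activating low-affinity receptor for immunoglobulin G. It was at 7.16 and 11.4 CPM in double knockout hearts, against 3.98 and 4.30 CPM in wild type hearts, so the groups did not overlap. The fold change came to 1.15 on the log2 scale (SE 0.27; adjusted p = 0.159 by edgeR and 0.0262 by DESeq2). Set alone against wild type, the libraries gave a log2 fold change of 1.46 for library 2 (SE 0.22; adjusted p = 0.000514) and 0.79 for library 1 (SE 0.23; adjusted p = 0.0484), and over 15 alternative settings its adjusted p ran from 0.000421 to 0.971. A stretch of 509 bases of Fcgr3 is 96.5% identical to Fcgr2b, the inhibitory receptor of the same family, so reads may have been counted to either gene. Fcgr2b, named for this overlap, was itself at 3.03 and 3.30 CPM in double knockout hearts, against 1.27 and 1.33 CPM in wild type hearts (log2 fold change 1.28, SE 0.26; edgeR adjusted p = 0.146).

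Cd163 (ENSMUSG00000008845, chromosome 6, 124304656 to 124330527), the scavenger receptor for hemoglobin bound to haptoglobin, was at 5.29 and 11.01 CPM in double knockout hearts, against 3.14 and 3.01 CPM in wild type hearts. It was thus above wild type in both double knockout libraries, and 2.08 times as high in library 2 as in library 1 (95% interval 1.67 to 2.60). Its difference was 1.39 on the log2 scale (SE 0.38; adjusted p = 0.182 by edgeR and 0.0315 by DESeq2), and its edgeR adjusted p was 0.000110 for library 2 alone against wild type and 0.0708 for library 1 alone. Over 15 settings its adjusted p ran from 3.92e-05 to 0.971. Cd14, the coreceptor that hands lipopolysaccharide to the TLR4 complex, was at 1.66 and 2.32 CPM in double knockout hearts, against 1.06 and 0.844 CPM in wild type hearts (log2 fold change 1.04, SE 0.34; edgeR adjusted p = 0.220). Ctss, the lysosomal protease cathepsin S, was at 13.9 and 14.9 CPM, against 7.96 and 10.2 CPM in wild type (log2 fold change 0.66, SE 0.19; edgeR adjusted p = 0.185). In both genes the groups did not overlap, and the double knockout libraries lay close together for Ctss.

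The 3 chains of complement C1q, the recognition molecule of the classical complement pathway, differed in the same direction. Their genes C1qa, C1qb and C1qc lie beside each other on the minus strand of chromosome 4, between 136880129 and 136898803. C1qa was at 9.95 and 12.5 CPM in double knockout hearts, against 6.203 and 7.997 CPM in wild type hearts. C1qb was at 11.8 and 14.7 CPM, against 8.28 and 9.85 CPM, and C1qc at 11.4 and 13.2 CPM, against 7.33 and 9.81 CPM. For each chain the double knockout values exceeded the wild type values. The log2 fold changes were 0.66 (SE 0.22), 0.55 (SE 0.19) and 0.52 (SE 0.21), with edgeR adjusted p of 0.224, 0.240 and 0.283. The make-up of the C1q reads hardly differed between libraries: C1qb held 35.7% and 36.4% of them in double knockout hearts and 38.0% and 35.6% in wild type hearts.

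The promoters of the C1q genes are shown because these neighbours lay higher together, and that of Cx3cr1 because it parted most from them. Each is the 250 bases before the RefSeq start site on build GRCm38.p6, 5′ to 3′ on the gene's minus strand, with capitals on GAGGAA or its reverse complement TTCCTC, the core of the PU.1 motif. C1qa has no entry in the promoter table used.
C1qb, chr4:136886201-136886450: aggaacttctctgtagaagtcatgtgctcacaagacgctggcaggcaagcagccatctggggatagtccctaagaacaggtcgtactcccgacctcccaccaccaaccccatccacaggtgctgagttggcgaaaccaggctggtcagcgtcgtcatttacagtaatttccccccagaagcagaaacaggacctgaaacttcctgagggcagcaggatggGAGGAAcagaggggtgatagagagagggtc
C1qc, chr4:136892915-136893164: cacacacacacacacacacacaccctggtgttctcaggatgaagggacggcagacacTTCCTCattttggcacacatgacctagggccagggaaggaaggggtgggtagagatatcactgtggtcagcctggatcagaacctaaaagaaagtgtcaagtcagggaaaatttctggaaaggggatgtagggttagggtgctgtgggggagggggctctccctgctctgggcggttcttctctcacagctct
Cx3cr1, chr9:120068297-120068546: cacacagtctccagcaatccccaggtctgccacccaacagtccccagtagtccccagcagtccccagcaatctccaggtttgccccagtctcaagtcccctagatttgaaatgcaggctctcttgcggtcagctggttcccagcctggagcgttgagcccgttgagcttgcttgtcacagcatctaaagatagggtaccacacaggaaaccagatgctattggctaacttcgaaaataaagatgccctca
C1qb holds the core on its own strand and C1qc on the opposite strand, where it is part of the longer motif GAGGAAGT. No match lies in the Cx3cr1 stretch, which is inside the annotated span of that gene, ending at 120069879. Over windows of 300 bases that also take in 50 bases after the start, 15 of the 27 windows of 22 members (55.6%) held GAGGAA on either strand, against 28.3% of all 32851 windows. GAGGAAGT, which contains it, was in 4 of the 27 windows (14.8%), against 3.20% of all windows. The CArG box, the sequence that serum response factor binds, was in 1 of them, that of Mpeg1 (3.70%, against 1.63%). Among other members, GAGGAA was in windows of Fcgr3, Ctss, F13a1, Mrc1, Cd68, Fcgr1, Cd53, Laptm5, Ptprc, Cybb and Aif1. No match lay in windows of Cd163, Ccr2, Mpeg1, Irf8, Lyz2, Fcer1g, Folr2 or Timd4. Those with and those without it each include members higher and members lower than wild type in double knockout library 2. Whether the motif goes with the direction was not tested. These matches describe letters and show no binding.

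The genes that separated the double knockout libraries were led by Cx3cr1 (ENSMUSG00000052336, chromosome 9, 119901616 to 120069879), the receptor for fractalkine. It had 337 and 13 reads in double knockout hearts, or 11.9 and 0.795 CPM, against 298 and 248 reads, or 10.5 and 9.97 CPM, in wild type hearts. Library 1 was thus slightly above both wild type libraries, and library 2 at 0.0669 of library 1 (95% interval 0.0353 to 0.116), a ratio that only 30 of the 16009 tested genes undercut. The log2 fold change over both libraries was -0.63 (SE 0.99; edgeR adjusted p = 0.784). Library 2 alone against wild type gave -3.68 (SE 0.32; edgeR adjusted p = 5.10e-06), and library 1 alone gave 0.21 (SE 0.18; adjusted p = 0.531). Ccr2 (chromosome 9, 124101950 to 124113557), the receptor by which monocytes follow the chemokine CCL2, had the same pattern at 4.06 and 0.856 CPM in double knockout hearts, against 3.56 and 3.34 CPM in wild type hearts. For library 2 alone its log2 fold change was -2.01 (SE 0.38; edgeR adjusted p = 0.00262), and for library 1 alone 0.23 (adjusted p = 0.641).

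Further genes followed the same order, lower in double knockout library 2 than in library 1. Adgre1, which encodes the macrophage surface protein F4/80, was at 5.71 and 2.69 CPM in double knockout hearts, against 5.07 and 4.86 CPM in wild type hearts. Mpeg1, the pore-forming perforin-2 of phagosomes, was at 15.2 and 6.42 CPM, against 10.9 and 11.6 CPM. Ptprc, the phosphatase CD45 that all white blood cells carry, was at 5.71 and 2.998 CPM, against 5.07 and 6.35 CPM. In all of them library 2 lay below both wild type libraries, and with library 2 alone each was lower at an edgeR adjusted p of 0.0449, 0.0184 and 0.0377. Cybb, the catalytic subunit of the phagocyte NADPH oxidase, was at 6.31 and 2.08 CPM, against 3.52 and 5.55 CPM, with an edgeR adjusted p of 0.0508 for library 2 alone. Aif1, the actin-binding protein IBA1, was at 1.06 and 0.428 CPM, against 0.740 and 0.924 CPM, and Irf8, a transcription factor of monocytes and macrophages, at 9.87 and 6.48 CPM, against 9.80 and 9.48 CPM. Cd52, a small surface glycoprotein, was at 0.811 and 0.306 CPM, against 0.352 and 0.683 CPM. Fcgr1, the high-affinity receptor for immunoglobulin G, was at 1.80 and 1.04 CPM, against 1.37 and 1.69 CPM.

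Csf1r, the receptor for the growth factors CSF1 and IL-34 on which macrophages depend, was at 24.6 and 15.2 CPM in double knockout hearts, against 17.1 and 17.7 CPM in wild type hearts. Its double knockout libraries thus lay on either side of wild type (log2 fold change 0.20, SE 0.24; edgeR adjusted p = 0.709). Of its 5774 exon bases, 873 overlap Hmgxb3 on the opposite strand, and the strand setting of the counting was not given in the sources used here. Lyz2, the lysozyme of myeloid cells, was at 22.2 and 12.5 CPM, against 14.6 and 13.2 CPM, and passed for library 1 alone (log2 fold change 0.67, SE 0.16; edgeR adjusted p = 0.0206). Its near copy Lyz1, 95.8% identical over 1264 bases, had between 1 and 6 reads per library. Spi1 was at 1.62 and 1.10 CPM, against 0.881 and 1.29 CPM, with 18 to 46 reads per library.

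Library by library, edgeR called 12 of 29 members for double knockout library 2 alone against wild type, 7 higher and 5 lower, where 17.1% of all genes were called, 9.0% higher and 8.13% lower. The higher genes were C1qa, C1qb, Cd14, Cd163, Ctss, F13a1 and Fcgr3, and the lower genes Adgre1, Ccr2, Cx3cr1, Mpeg1 and Ptprc. For library 1 alone it called 2, Fcgr3 and Lyz2, both higher, where 8.24% of all genes were called, 3.78% higher and 4.46% lower. Without wild type library 1 or 2 it called 0 members, where 0.0121% and 0.0180% of all genes passed, all of them lower. In each of these fits the lone library is assumed to vary like the other group, and a double knockout library set alone stands for that library and not for the genotype. The sign of the fold change differed between the 2 libraries in 14 of 29 members, and the share over all genes was not computed.

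Ratios within a library do not depend on the scaling between libraries, but those per Csf1r read also carry the level of Csf1r, whose ratio of double knockout library 2 to library 1 was 0.617 (95% interval 0.532 to 0.714). For every 100 Csf1r reads there were 48.4 and 5.24 Cx3cr1 reads in double knockout libraries 1 and 2, against 61.4 and 56.2 in wild type libraries 1 and 2. Ccr2 came to 16.5 and 5.65 reads per 100, against 20.8 and 18.8. Cd163 went the other way, with 0.215 and 0.726 reads per Csf1r read in double knockout hearts, against 0.184 and 0.170 in wild type hearts. The C1q genes together had 1.35 and 2.66 reads per Csf1r read, against 1.28 and 1.56, so here library 1 lay within the wild type range. Lyve1 had 1.598 and 3.72 reads per Csf1r read, against 1.83 and 2.61, and Mrc1 1.18 and 2.37, against 1.75 and 1.49. Double knockout library 2 lay outside the range of the other 3 libraries in each of these ratios, with Lyve1 and Mrc1 on the high side as well.

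**Figure D3:**
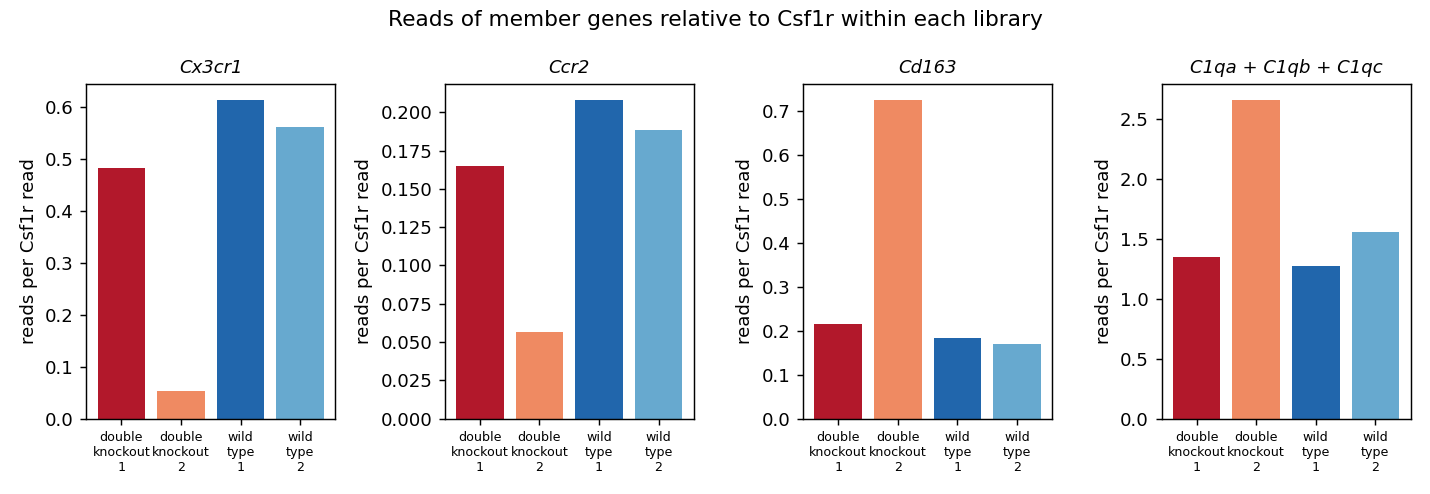
Reads of Cx3cr1, Ccr2, Cd163 and the summed C1q genes per read of Csf1r within each library, as bars from 0, double knockout in red and orange and wild type in blue. Double knockout library 2 has the lowest bars for Cx3cr1 (0.0524) and Ccr2 (0.0565) and the highest for Cd163 (0.726) and C1q (2.66).

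None of the remaining resident markers passed the test over both libraries of each group. Lyve1, a hyaluronan receptor that lymphatic endothelium also carries, was at 39.3 and 56.5 CPM in double knockout hearts, against 31.3 and 46.2 CPM in wild type hearts, so the groups overlapped (log2 fold change 0.30, SE 0.25; edgeR adjusted p = 0.584). Mrc1, the mannose receptor, which endothelial cells can also express, was at 28.9 and 36.0 CPM, against 29.9 and 26.3 CPM. F13a1, the A subunit of coagulation factor XIII, was at 22.4 and 28.7 CPM, against 21.7 and 18.6 CPM, with both double knockout libraries above wild type. Folr2, the folate receptor beta, was at 4.13 and 3.61 CPM, against 4.02 and 3.62 CPM, a log2 fold change of 0.02 (SE 0.22), but 975 of its 1546 exon bases overlap Gm10602 on the opposite strand. Cd68, a lysosomal membrane protein of phagocytes, was at 3.42 and 2.81 CPM, against 2.71 and 2.17 CPM. Timd4, the phosphatidylserine receptor TIM-4, had 8 and 2 reads in double knockout hearts and 3 and 4 reads in wild type hearts, and as the only member under the filter on low counts it was not tested.

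Resident markers were also set against general leukocyte genes. The 14 tested resident markers had a median log2 fold change of 0.25 with 10 positive, and the 15 leukocyte genes a median of 0.21 with 9 positive. Under the stricter filter on low counts the medians were 0.31 and 0.05. Without double knockout library 1 these medians were 0.28 and -0.07, and without library 2 they were 0.31 and 0.48, so the leukocyte median changed sign between the libraries and the resident median did not. The median log2 ratio of double knockout library 2 to library 1 was 0.01 for resident markers and -0.56 for leukocyte genes. Both lists were split, however. Library 2 was lower than library 1 in 7 of the 14 resident markers and 10 of the 15 leukocyte genes. It was more than 2-fold lower in 3 resident markers and 4 leukocyte genes, and the largest drop was that of the resident marker Cx3cr1. The resident medians thus do not show that resident markers were stable between the libraries, and a difference between the lists was not tested. The ratio of summed resident to summed leukocyte levels, in CPM per kilobase of exon, was 1.44 and 1.81 in double knockout hearts and 1.62 and 1.77 in wild type hearts. The double knockout values lay on either side of the wild type values, with a difference of group means of -0.07 on the log2 scale. An exact two-sided permutation test of 2 libraries against 2 cannot go below p = 0.333.

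The signalling adaptors and small leukocyte proteins make up the rest of the list. Tyrobp, the adaptor DAP12 that carries signals from activating receptors such as TREM2, was at 2.50 and 2.26 CPM in double knockout hearts, against 1.73 and 1.85 CPM in wild type hearts, without overlap of the groups (log2 fold change 0.42, SE 0.26; edgeR adjusted p = 0.454). Fcer1g, the common gamma chain through which FCGR1 and FCGR3 signal, was at 1.38 and 2.26 CPM, against 1.62 and 1.45 CPM, with a ratio of library 2 to library 1 of 1.65 in the double knockout pair (95% interval 1.02 to 2.65). The tetraspanin Cd53 was at 4.09 and 3.92 CPM, against 3.49 and 3.70 CPM. Laptm5, a lysosomal protein of blood cells, was at 5.36 and 5.87 CPM, against 5.89 and 6.43 CPM. Of these genes, Tyrobp and Cd53 lay above wild type and Laptm5 below it in both double knockout libraries, by differences that did not pass the test.

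Compared per kilobase of exon, the most abundant members were Lyve1 and Lyz2. Lyve1 stood at 13.5 and 19.3 CPM per kilobase in double knockout hearts, against 10.7 and 15.8 in wild type hearts, and Lyz2 at 16.9 and 9.53, against 11.1 and 10.02, so the wild type values of these neighbours overlapped. C1qb (7.61 and 9.05), C1qa (5.96 and 7.69) and Ctss (5.87 and 7.52) came next in wild type hearts, C1qb below both Lyz2 values and each of the others overlapping the gene before it. Csf1r (2.96 and 3.07), Cx3cr1 (2.33 and 2.21) and Adgre1 (1.57 and 1.502 CPM per kilobase) were lower in wild type hearts. Cd163 (0.574 and 0.552) and Ccr2 (0.527 and 0.493) were lower still, and Timd4 was lowest (0.0487 and 0.0740). Ptprc stood at 0.277 and 0.347 over 18313 annotated exon bases.

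The partners of these receptors were read from a list of 17 macrophage growth factors and chemoattractants, of which 11 were tested. That list also holds the receptor genes C5ar1 and C3ar1, with log2 fold changes of 0.09 and 0.12, so it does not describe ligands alone. Csf1, the main ligand of CSF1R, was at 18.1 and 19.3 CPM in double knockout hearts, against 21.9 and 21.2 CPM in wild type hearts (log2 fold change -0.21, SE 0.13; edgeR adjusted p = 0.461). The second ligand, Il34, had 9 to 30 reads per library. Cx3cl1, which encodes fractalkine, the ligand of CX3CR1, was at 5.22 and 6.36 CPM, against 4.19 and 4.30 CPM (0.44, SE 0.21; adjusted p = 0.356), and Ccl2, a ligand of CCR2, at 2.40 and 1.10 CPM, against 2.01 and 1.73 CPM. Of this list 8 genes had a positive fold change and 3 a negative one, with a median of 0.12, and 0 passed in edgeR at an adjusted or unadjusted p under 0.05 or in DESeq2. The chemokines Ccl6 and Ccl9, chosen after their values were seen, were high in double knockout library 2: Ccl9 was at 2.01 and 9.48 CPM, against 1.73 and 2.13 CPM, and Ccl6 at 1.59 and 5.26 CPM, against 1.52 and 1.65 CPM.

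Macrophage transcription factors and further macrophage genes were read from lists of 14 and 32 genes. Of the 13 transcription factors tested, 10 had a positive fold change (median 0.19) and 0 passed in edgeR. At an unadjusted edgeR p under 0.05, 2 were higher, Maf among them, where 8.70% of all genes were higher. DESeq2 called Maf, where it called 1.76% of all genes higher. Maf, a leucine zipper transcription factor of mature macrophages, was at 21.6 and 25.1 CPM in double knockout hearts, against 11.7 and 11.6 CPM in wild type hearts (log2 fold change 0.999, SE 0.15; adjusted p = 0.121 by edgeR and 0.000476 by DESeq2). Of the 28 further macrophage genes tested, 21 had a positive fold change (median 0.24) and 0 passed in edgeR. Against the same shares of all genes, 6 were higher at an unadjusted edgeR p under 0.05, and DESeq2 called 2, Apoe and Selenop. Apoe, the lipid carrier apolipoprotein E, was at 208 and 201 CPM, against 99.8 and 136 CPM (0.80, SE 0.16; edgeR adjusted p = 0.148), and Selenop, the selenium carrier selenoprotein P, at 495 and 511 CPM, against 284 and 304 CPM (0.78, SE 0.11; edgeR adjusted p = 0.120). Csf2rb, the shared receptor chain for GM-CSF, was at 4.30 and 6.61 CPM, against 2.33 and 2.49 CPM (log2 fold change 1.16, SE 0.29; edgeR adjusted p = 0.163). The groups did not overlap in any of these 4 genes, which were chosen after their values were seen. Both double knockout values lay above both wild type values in 5 of the 13 and 9 of the 28 genes, against 25.8% of all genes. The reverse held in 1 of the 13, Cebpa, and in 2 of the 28, Cbr2 and Ctsb, against 25.2% of all genes. Several cell types of the heart express Maf, Apoe and Selenop, and which of them the reads came from was not tested.

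Markers of other blood cells were summed over each list. The 18 neutrophil and mast cell genes summed to 49.2 and 17.3 CPM in double knockout hearts, against 45.0 and 46.6 CPM in wild type hearts, and 13 of the 14 tested had a negative fold change (median -0.40; 0 passed in edgeR at an adjusted or unadjusted p under 0.05 or in DESeq2). In 6 of the 14 both double knockout values lay below both wild type values, against 25.2% of all genes. These were Mmp8, S100a8, S100a9, Ltf, Csf3r and Mcpt4, most of them neutrophil genes, whereas the groups overlapped for Cpa3 and Cma1. The mast cell proteases Cpa3 and Cma1 lead that sum: Cpa3 was at 16.5 and 4.71 CPM, against 14.9 and 15.95 CPM, and Cma1 at 10.1 and 2.14 CPM, against 6.94 and 7.27 CPM. Double knockout library 2 was thus low in mast cell genes as well as in Cx3cr1 and Ccr2, and the part of this in the differences above was not tested. The 18 lymphocyte genes summed to 2.82 and 2.20 CPM, against 2.93 and 3.25 CPM, and the T cell genes Cd3d, Cd3e and Cd3g had at most 1 read in any library. Platelet genes summed to 10.1 and 12.1 CPM, against 8.70 and 10.01 CPM, and dendritic cell genes to 34.3 and 37.3 CPM, against 33.2 and 32.5 CPM. Most of the dendritic sum was Zbtb46, at 25.3 and 24.9 CPM, against 23.8 and 25.0 CPM, and which cells its reads came from was not tested. Only 3 of the 8 dendritic genes passed the filter on low counts, so the sum says little about the others. Erythroid genes, which mark blood in the heart, summed to 463 and 806 CPM, against 752 and 553 CPM, so the groups overlapped. Within that list the beta-globin gene Hbb-bt, chosen after its values were seen, was at 6.45 and 7.77 CPM, against 42.0 and 26.2 CPM (log2 fold change -2.27, SE 0.27; adjusted p = 0.0957 by edgeR and 1.99e-11 by DESeq2). Beta-globin genes are close copies, so reads may have been counted to another of them.

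Markers of the cells of the heart wall were summed in the same way. Blood vessel endothelial genes summed to 2014 and 2104 CPM in double knockout hearts, against 2103 and 2184 CPM in wild type hearts. Lymphatic endothelial genes, which include Lyve1 and Mrc1, summed to 387 and 351 CPM, against 378 and 397 CPM. Much of the lymphatic sum was Prox1, at 218 and 132 CPM, against 212 and 220 CPM. Of the 8 lymphatic genes tested, 7 were higher in double knockout library 2 than in library 1, unlike the sum. Fibroblast genes summed to 3455 and 4454 CPM, against 4146 and 4436 CPM, and cardiomyocyte genes to 44114 and 41731 CPM, against 45270 and 44356 CPM. Over the 12 further lists together, 0 of 110 tested genes passed in edgeR, 9 were higher and 2 lower at an unadjusted p under 0.05, where 8.70% of all genes were higher and 8.63% lower. DESeq2 called 3 higher (Maf, Apoe and Selenop) and 1 lower (Hbb-bt), where 1.76% of all genes were higher and 1.57% lower.

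**Figure D4:**
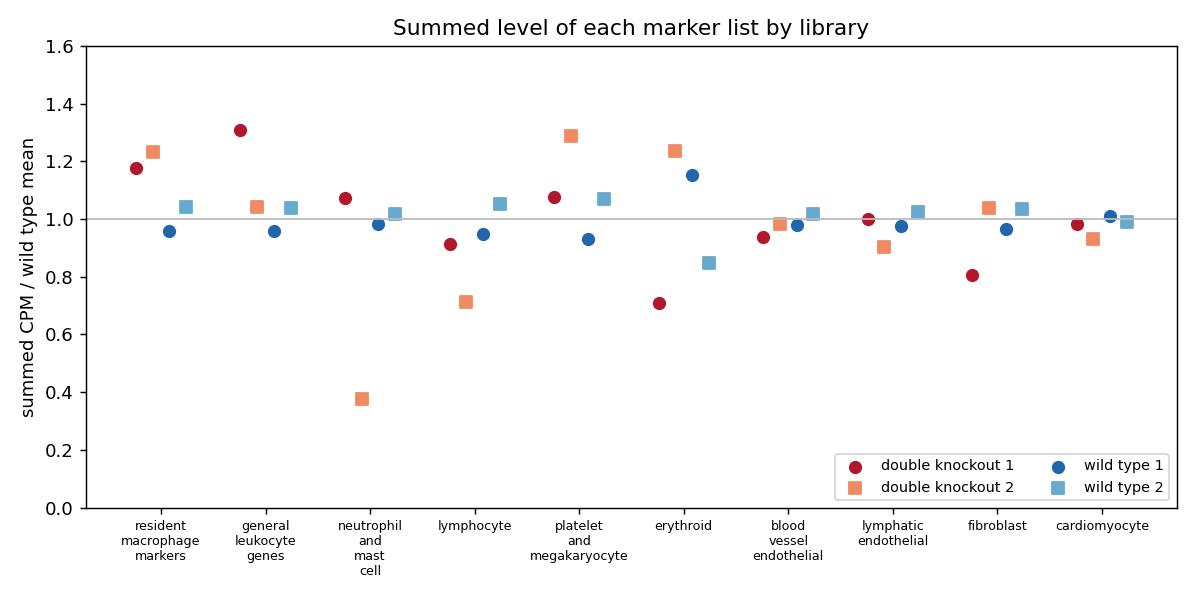
Summed CPM of each marker list in each library divided by the mean of the wild type libraries, with the line at 1 marking that mean. Double knockout libraries are red and orange, wild type libraries blue. Resident macrophage markers lie above 1 in both double knockout libraries, general leukocyte genes lie furthest above 1 in library 1, and neutrophil and mast cell genes lie far below 1 in double knockout library 2 (17.3 CPM, against 45.0 and 46.6 CPM in wild type).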

How the data were processed

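The deposited files hold raw gene counts, 1 column of counts for each library. Per the submitters' processing notes, the authors used HTSeq, DESeq 1.10.1 and build mm10. The sources used here do not give the aligner, the annotation, the strand setting or the handling of reads with several matches. Identifiers were matched without their version to GENCODE M21 (42462 of 43346 matched).

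Counts were tested with edgeR 4.0.16 in R 4.3.3 (filterByExpr, TMM, robust quasi-likelihood fit, no covariate) over all 16009 tested genes, and Benjamini-Hochberg adjusted p under 0.05 was the threshold. SE is the log2 fold change over the root of the F statistic. The test was also run on simulated counts. These had the same built-in spread for every gene, so they do not show how it performs for genes as variable as Cx3cr1. Ratios between libraries of 1 genotype have exact conditional 95% intervals. A count of 3 equals 0.106 to 0.184 CPM per library. Alternatives were scaling by RLE, by upper quartiles or by totals, no filter, a stricter filter (a mean of 50 counts and, throughout a group, CPM above 1), DESeq2 1.42.0, limma-voom 3.58.1, no robust estimation, a replicate block, removal of erythroid and mitochondrial genes, and leaving out each library. A crossed block was chosen after seeing the data.

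Named genes were all 30 members, the targeted genes and, from each other list, the 2 most abundant genes where none passed. Of these most abundant genes, only Cpa3, Cma1, Prox1 and Zbtb46 are printed. The ligands were named for their receptors and Fcgr2b for its likeness to Fcgr3. The members and lists were chosen with earlier results of these data known. Similar transcripts were sought with blastn 2.17.0. Promoters are from RefSeq, build GRCm38.p6, with entries for 22 of the 30 members.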

Additional observations from a re-analysis of the deposited data

How the results depend on the processing

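edgeR called 12 of all genes, and no filter gave 1514, DESeq2 532, the replicate block 2, the crossed block 3 and leaving out 1 library 2 to 2795. Members called numbered 0, and 3 with no filter (Cd163, Ctss, Fcgr3), 2 in DESeq2 and 0 to 12 with 1 library left out. Genes called on the other lists numbered 0, and 10 with no filter, 4 in DESeq2 and 0 to 29 with 1 library left out. The share of all genes called with no filter was not computed, so the counts with no filter do not set these genes apart. The median log2 fold change of resident markers was 0.32 with library totals, 0.29 with no filter, 0.31 with the stricter filter and 0.20 to 0.31 with 1 library left out. That of leukocyte genes was 0.05 with the stricter filter and ran from -0.069 to 0.48, and that of all members from 0.03 to 0.39, with 1 library left out. The cause was not tested. Same-numbered libraries deviated with a correlation of -0.12, so the numbers were not taken as pairs. Under the replicate block the median of all members was 0.19 and 0 members were called.

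With library totals, the log2 fold change turned positive for Fcgr1 (0.0058), Mpeg1 (0.039), Cybb (0.0057) and Ccl2 (0.028). With 1 library left out, signs turned in the following ranges: Adgre1 -0.89 to 0.20, Aif1 -0.95 to 0.35, Ccl2 -0.76 to 0.35, Ccr2 -2.01 to 0.23, Cd52 -0.73 to 0.71, Cma1 -1.73 to 0.51, Cpa3 -1.71 to 0.091, Csf1r -0.20 to 0.50, Cx3cr1 -3.68 to 0.21, Cybb -1.12 to 0.48, Fcer1g -0.16 to 0.56, Fcgr1 -0.55 to 0.23, Folr2 -0.084 to 0.11, Il34 -0.98 to 0.28, Irf8 -0.57 to 0.033, Lyz2 -0.15 to 0.67, Mpeg1 -0.81 to 0.43, Mrtfb -0.25 to 0.012 and Ptprc -0.93 to 0.0015. The resident to leukocyte difference ran from -0.23 to 0.10 with 1 library left out and was 0.02 from mean log2 levels. Depth limits Timd4, Cd52 and Aif1, which had 2 to 30 reads per library.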
